A study of Mus musculus with 10 samples.

Results

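The proteasome is the large protease that degrades proteins tagged with ubiquitin. Its genes were examined in GFP-positive ganglion cells, whose axons form the optic nerve, sorted at postnatal day 6 from mice with the Hb9-GFP reporter. The symbols were taken by their spelling, Psm followed by a letter from a to g and a number, and 49 of the 23258 symbols in the deposited table match. Of the 49, 48 belong to proteasome genes. Psmc3ip also matches but encodes a protein of meiotic recombination, so it is counted among the 49 but described separately. The 5 wild-type libraries came from C57BL/6 mice with the Hb9-GFP reporter, in which GFP marks ganglion cells tuned to the direction of motion. The 5 knockout libraries came from Satb1-/- mice of the same strain and age with the same reporter. The labels do not say which part of Satb1, a gene for a chromatin organizer, is missing, or whether it is missing only in some cells. RNA came from about 1000 sorted cells per sample, the samples of a genotype came from different litters, and the cDNA was amplified before library construction.

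The catalytic core, called 20S, is a barrel of outer alpha rings and inner beta rings, with the cutting sites inside the beta rings. The 19S cap binds ubiquitin chains, and its ATPases unfold the substrate and feed it into the core. Interferon and immune cells exchange the cutting subunits of the beta ring for inducible ones, and other caps, chaperones and an inhibitor modify or assemble the particle. Neurons use it to turn over proteins in the cell body, the axon and the synapse.

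To show members with contrasting levels side by side, the promoter is given for Psmb5 (the beta 5 cutting subunit of the constitutive core), for Psmb8 (its inducible counterpart), for Psme1 (the member with the highest median level) and for Psmd4 (the member with the smallest p between genotypes). Each runs 5′ to 3′ on the strand of the gene, from 250 bases before to 50 after the start, in RefSeq on GRCm38.p6. Capitals mark matches to the ETS core CCGGAA, to the antioxidant response element TGACNNNGC and to an interferon-stimulated pair (TTTC, 2 bases of any kind, TTTC), on both strands.
Psmb5, chr14:54617946-54618245, minus strand: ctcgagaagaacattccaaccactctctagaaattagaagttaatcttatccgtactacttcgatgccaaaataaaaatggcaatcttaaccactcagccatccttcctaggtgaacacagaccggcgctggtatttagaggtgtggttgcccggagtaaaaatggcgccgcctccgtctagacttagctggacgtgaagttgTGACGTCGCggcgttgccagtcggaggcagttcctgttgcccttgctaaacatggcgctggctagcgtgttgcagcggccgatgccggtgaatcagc
Psmb8, chr17:34197945-34198244, plus strand: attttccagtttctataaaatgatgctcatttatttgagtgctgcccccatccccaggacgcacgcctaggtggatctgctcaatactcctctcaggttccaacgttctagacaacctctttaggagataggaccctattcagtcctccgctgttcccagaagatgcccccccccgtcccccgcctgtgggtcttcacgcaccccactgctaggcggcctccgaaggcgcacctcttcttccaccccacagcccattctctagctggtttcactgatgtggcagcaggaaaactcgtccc
Psme1, chr14:55578244-55578543, plus strand: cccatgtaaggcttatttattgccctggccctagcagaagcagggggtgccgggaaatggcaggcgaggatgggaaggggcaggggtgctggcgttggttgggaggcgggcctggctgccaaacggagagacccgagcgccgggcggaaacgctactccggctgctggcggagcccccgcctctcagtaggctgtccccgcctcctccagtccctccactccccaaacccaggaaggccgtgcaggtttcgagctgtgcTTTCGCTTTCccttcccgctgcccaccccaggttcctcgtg
Psmd4, chr3:95042565-95042864, minus strand: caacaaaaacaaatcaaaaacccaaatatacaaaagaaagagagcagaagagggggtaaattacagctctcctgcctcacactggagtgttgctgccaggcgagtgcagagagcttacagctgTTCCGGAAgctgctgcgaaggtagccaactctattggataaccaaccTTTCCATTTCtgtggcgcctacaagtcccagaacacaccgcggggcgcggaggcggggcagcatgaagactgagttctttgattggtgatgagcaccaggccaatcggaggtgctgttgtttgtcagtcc

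The Psmb5 window holds 1 antioxidant response element, the Psme1 window 1 interferon-stimulated pair, and the Psmd4 window 1 such pair beside an ETS core that reads on both strands. In the Psmb8 window none of these 3 letter patterns was found. The Psmb8 and Psme1 windows lie inside the gene spans given further on, which come from GENCODE, so bases before those spans were not searched. Of the 49 symbols, 41 had a promoter entry, and 9 letter patterns were searched on both strands. The ETS core was in 21 of the 41 (51.2%), against 31.2% of 8387 tested genes with an entry of the same length. The interferon-stimulated pair was in 5 (12.2% against 3.16%), namely Psmb3, Psmd4, Psmd9, Psme1 and Psmg4. It was not found for the inducible subunits Psmb8, Psmb9 and Psmb10, or for Psme2. The Psmb9 window (chr17:34187281-34187580, minus strand) also lies inside its gene span, 34181987 to 34187764. Bases before the Psmb9 span were therefore not searched either. The antioxidant response element, the kind of element through which the factor encoded by Nfe2l1 is known to act on proteasome genes, was in 6 (14.6% against 17%). The shares for the other patterns were 56.1% against 70.4% for the GC box GGGCGG, 36.6% against 43.1% for the CCAAT box, 9.76% against 8.31% for TATAAA, 9.76% against 11.9% for the E-box CACGTG, 4.88% against 4.38% for CGCATGCGC and 4.88% against 5% for ACTACAA. These are matches of letters, and no binding was measured.

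All 11 general markers of ganglion cells were above 0 in every library, with a summed level of 13846 to 100726 TPM (a level scaled for transcript length and for the total of the library). Nefl alone made 94381 TPM of the highest sum, in knockout 3. Markers of microglia summed to 16 to 2753 TPM for wild-type, and 103 to 3255 in knockout, rod markers to 3.89 to 461 and 1.13 to 455, and endothelial markers to at most 17.7 TPM. Müller glia markers summed to 99.9 to 414 TPM for wild-type and 78.9 to 5713 TPM for knockout, the highest in knockout 5, where Apoe had 5651 TPM. Apoe made nearly all of that sum. In knockout 5, Glul was at 61.5 TPM, Aqp4 at 0.282 TPM, and Rlbp1, Slc1a3 and Sox9 were listed at 0. The 5 markers of direction-selective ganglion cells summed to 534 to 1101 TPM for wild-type and 116 to 305 TPM for knockout. All 5 had a lower mean level in knockout, with a median log2 difference of -2.24 and none called by limma, and Cartpt (-4.49, SE 0.82; limma adjusted p = 0.134) did not overlap between genotypes. Cartpt was at 56.8 to 843 TPM for wild-type and 1.63 to 47.3 TPM for knockout. It made the largest part of the sum in every wild-type library but wild-type 4. Each of the other markers overlapped between genotypes. So the summed level of the 5 markers did not overlap between genotypes, which rests largely on Cartpt, and no single marker was called. The part of this in the values below was not tested. In bulk samples, a change in the share of a cell type and a change in its RNA per cell cannot be told apart. Satb1 itself was at 38.6 to 414 TPM for wild-type, and 24.1 to 170 TPM for knockout, ranges that overlap, so it checks the labels only weakly (limma, Benjamini-Hochberg adjusted p = 0.992). Wild-type 5, knockout 4 and knockout 5 stood apart on the first principal component, which held 32.9% of the variance. Cytosolic ribosomal protein genes took 12.2% to 13.7% of their TPM, against 3.87% to 8.03% in the other 7 libraries. Ganglion cell markers also differed there. Pou4f1 was at 37.4, 72.7 and 39.6 TPM, against 194 to 371 TPM in the other 7. Slc17a6 was at 67.8, 96.7 and 55.2 TPM, against 176 to 726 TPM. Pou4f2, Isl1 and Ebf3 were likewise below the other 7, Thy1 and Gap43 were above them, and the remaining general markers overlapped. No depth can be read from TPM, and no interval from counting was computed. All p-values set the difference between genotypes against the spread between libraries of a genotype, 5 each unless libraries were left out.

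No tested proteasome gene differed between genotypes beyond the spread between libraries. Of the 49 symbols, 47 had at least 1 TPM in at least 5 libraries and were tested. The exceptions were Psma8 and Psmb9. Limma called 0 of the 47 at a Benjamini-Hochberg adjusted p under 0.05, as it called 0 of 11744 tested symbols (0% called). At an unadjusted p under 0.05 it had 0 of the 47 and 389 of all symbols (3.31%). The 5 wild-type and 5 knockout libraries overlapped for every one of the 47, where 59 of all tested symbols (0.502%) did not overlap, 0.426% lower and 0.0766% higher in knockout.

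The direction of the differences was mixed and depended on the scaling. Log2 differences, knockout minus wild-type on the log2(TPM + 1) scale, were above 0 for 22 genes and below 0 for 25, which is 53.2% lower where 67.4% of all tested symbols were lower. The median was 0.00 over the 47 and -0.31 over all tested symbols. The split moved to 10 lower (21.3%, against 46.1% of all symbols; median 0.37 against 0.07) after median centring and to 19 lower (40.4%, against 52.3%) after quantile normalization. Without wild-type 5, knockout 4 and knockout 5 there were 28 lower (59.6%, against 61.8% of all symbols), so the share was then near the background. At least 2-fold differences, on the same scale, were seen upward for 5 genes (Psmb1, Psmb3, Psmc1, Psme2 and Psmg3) and downward for Psmd4, where 5.12% and 13.5% of all symbols had them. The median SE of a member was 0.69, so a 2-fold difference in a single gene was mostly not detectable here.

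**Figure D1:**
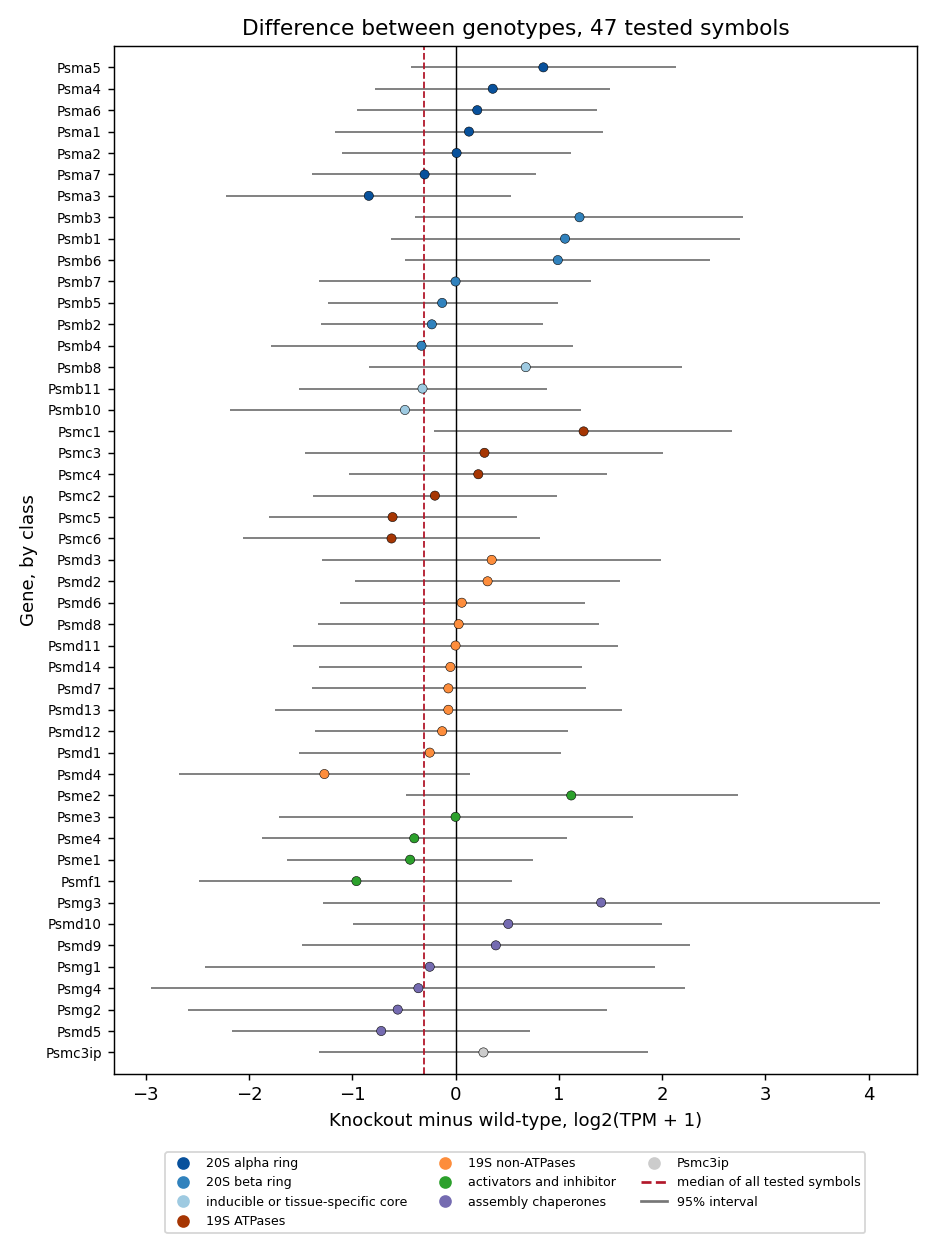
Knockout minus wild-type difference of each of the 47 tested genes on the log2(TPM + 1) scale (points, coloured by class) with its 95% interval from limma (lines). Every interval crosses 0, and the dashed line marks the median of all tested symbols, -0.31.

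The 49 symbols summed to 5512, 4645, 3990, 3875 and 4541 TPM for wild-type libraries 1 to 5, and to 3987, 4801, 4982, 6006 and 5214 TPM for knockout libraries 1 to 5. Mean sums were 4513 ± 651 and 4998 ± 729 TPM (SD, n = 5 each), and the genotypes overlapped. Between 0.388% and 0.601% of the TPM of a library came from these genes. Without the 3 libraries that stood apart, the means were 4506 ± 752 (SD, n = 4) and 4590 ± 530 TPM (SD, n = 3), and the difference was 84.2 in place of 485 TPM.

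**Figure D2:**
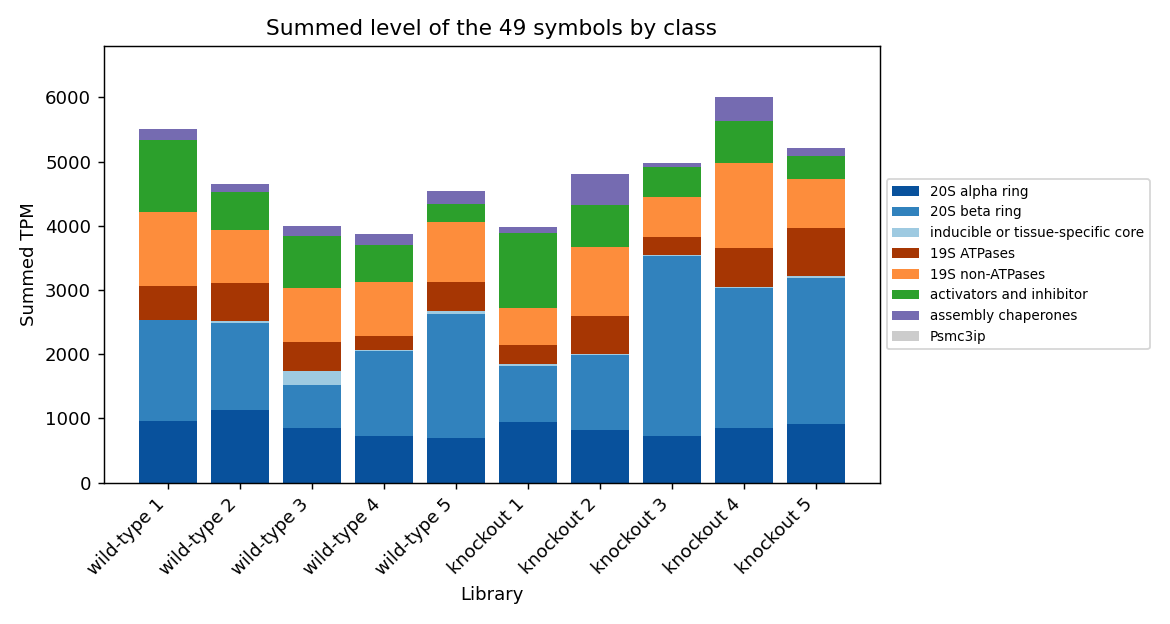
Summed TPM of the 49 symbols in each library, stacked by class. Totals run from 3875 TPM in wild-type 4 to 6006 TPM in knockout 4, and the beta ring makes the largest part in 8 of the 10 libraries.

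The 31 constitutive subunits of core and cap with a Psm symbol were all above 0 in all 10 libraries. Cap subunits under other names, such as Adrm1, are not among the 31. Of the 31, 29 lay above the 75th percentile of tested symbols by median TPM. Psmd13 (median 15.7 TPM) and Psmc6 (23.1 TPM) were the exceptions. Levels of the 31 also had a smaller spread between libraries than those of other genes, as a description with no test. The pooled SD within a genotype, on the log2 scale, had a median of 0.804 over the 31, against 1.14 over 5569 tested symbols at least as abundant as the lowest of them. These sets share a lower bound but were not matched in level (the 31 had a median level of 76.3 TPM). The part of level in this difference was not tested. The subunits of 1 particle were nevertheless uneven within a library. The highest of the 14 core subunits exceeded the lowest by 4.39-fold in wild-type 2 and by 52.5-fold in knockout 3, with the other 8 libraries in between. The median correlation between subunits was near 0, with 56.8% of pairs above 0, and single pairs departed from it (0.673 for Psmb3 with Psmd3). Over the 10 libraries the median Spearman rho between pairs of the 31 was 0.0667, against 0.115 over pairs of all tested symbols, as a description that shares the libraries and their depth.

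**Figure D3:**
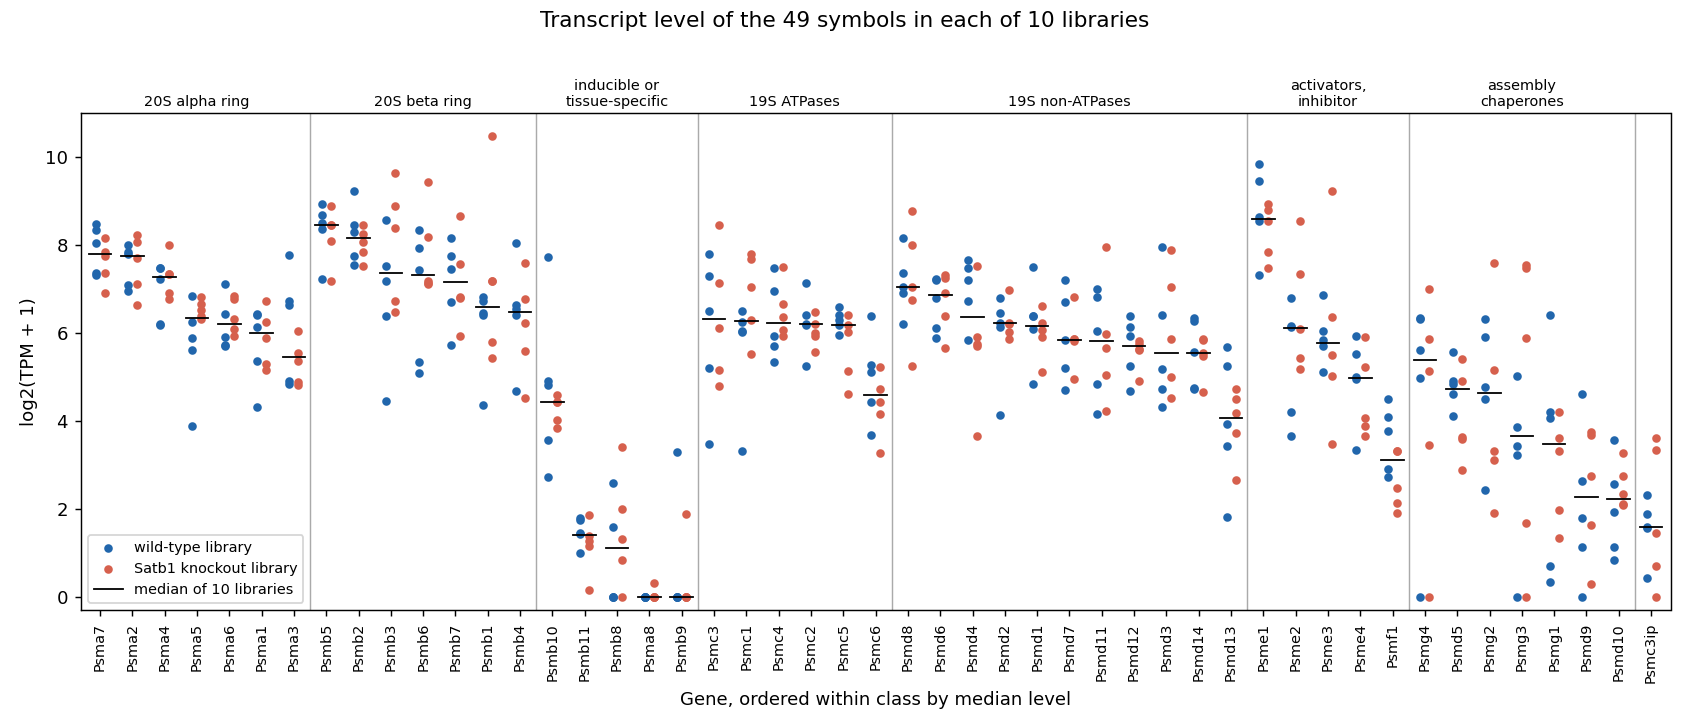
Level of each of the 49 symbols in each library on the log2(TPM + 1) scale (y axis), ordered within class by the median of 10 libraries (black line). Constitutive subunits have medians of 15.7 to 354 TPM, and the inducible or tissue-specific core genes of 0 to 20.6 TPM.

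The 7 genes of the alpha ring, which gates entry to the core, had medians of 43.3 to 222 TPM, and 5 were higher and 2 lower in knockout with none called. Psma7 was the most abundant, at 164, 264, 323, 358 and 159 TPM for wild-type libraries 1 to 5 and 119, 164, 214, 229 and 286 TPM for knockout libraries 1 to 5. Psma5 (chromosome 3, 108256926 to 108279974, plus strand, mm10) had the smallest p of the ring. Its level was 58.0, 74.9, 48.2, 13.8 and 114 TPM for wild-type, and 82.8, 78.6, 90.7, 101 and 112 TPM for knockout. The knockout libraries lay close together, and wild-type 4 was far below the rest. The difference was 0.85 (SE 0.61, 95% interval -0.43 to 2.13; limma adjusted p = 0.992), and 0.39 without wild-type 4. The summed ring was 872 ± 180 (wild-type) and 850 ± 81.6 TPM (knockout; SD, n = 5 each).

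Among the 7 beta ring genes, medians ran from 88.9 to 354 TPM, with 3 higher and 4 lower in knockout and none called. Psmb3, a structural beta subunit (chromosome 11, 97703399 to 97713500, plus strand), had the smallest p. It stood at 83.3, 145, 21.1, 184 and 383 TPM for wild-type, and 87.9, 334, 106, 802 and 477 TPM for knockout. The highest value of each genotype belonged to a library that stood apart, and the genotypes overlapped. The difference was 1.20 (SE 0.76, interval -0.39 to 2.78, limma adjusted p = 0.992), and 0.60 without wild-type 3. Without wild-type 5 it was 1.64, with an unadjusted limma p of 0.0455 and an adjusted p of 0.651. Psmb1, chosen after its values were seen, reached 1433 TPM in knockout 3, while the other 4 knockout libraries were at 42.1 to 144 TPM and wild-type at 19.6 to 113 TPM. That single value is part of the summed ring of 1370 ± 458 (wild-type) and 1860 ± 806 TPM (knockout; SD, n = 5 each).

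At the beta 1 and beta 5 sites the constitutive cutting subunit was above its inducible counterpart in all 10 libraries, and at the beta 2 site in 9 of 10. Psmb5, with the beta 5 site (chromosome 14, 54614119 to 54618022, minus strand), was at 492, 329, 149, 409 and 365 TPM for wild-type, and 145, 354, 471, 354 and 272 TPM for knockout. Its inducible counterpart Psmb8 (chromosome 17, 34197721 to 34201454, plus strand) was listed at 0 in wild-type 1, 3 and 4 and at 5.07 and 2.02 TPM in wild-type 2 and 5. In knockout, Psmb8 was listed at 0 in library 3 and stood at 3.03, 0.79, 1.50 and 9.59 TPM in libraries 1, 2, 4 and 5. So the highest Psmb8 value of any library was below the lowest Psmb5 value. For Psmb8 the difference was 0.68 (SE 0.73, interval -0.84 to 2.19, limma adjusted p = 0.992). It turned to -0.20 with values of 0 treated as missing and to -0.06 with library weights. It was 0.20 without knockout 5 and 1.12 without wild-type 2.

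At the beta 1 site, Psmb6 was at 246, 172, 39.4, 33.4 and 323 TPM for wild-type, and 144, 139, 292, 140 and 696 TPM for knockout. Its counterpart Psmb9 was listed at 0 in 8 libraries, while wild-type 5 had 8.82 TPM and knockout 4 had 2.68 TPM. Psmb9 shares exonic bases with Tap1 on the opposite strand, and the use of strand in counting is not given in the sources used here. At the beta 2 site, Psmb7 was at 215, 286, 103, 52.4 and 175 TPM for wild-type, and 110, 60.1, 112, 189 and 408 TPM for knockout. Psmb10 (chromosome 8, 105935735 to 105938444, minus strand) was the one inducible subunit above 0 in all 10 libraries, at 5.66, 27.1, 212, 10.9 and 28.9 TPM for wild-type, and 13.4, 20.5, 15.2, 20.6 and 23.2 TPM for knockout. Only in wild-type 3 was it above Psmb7. Psmb8, Psmb9 and Psmb10 together made 42.2% of the TPM of the 6 cutting subunits in wild-type 3, 0.59% to 4.40% in the other 4 wild-type libraries and 1.71% to 3.95% in knockout.

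**Figure D4:**
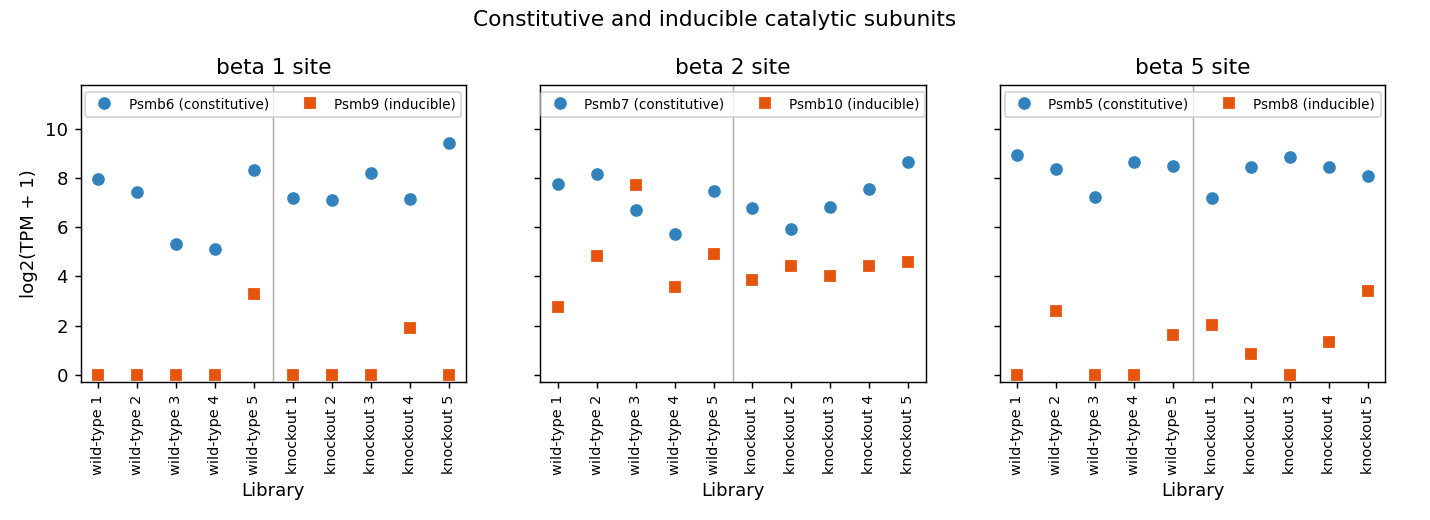
Level on the log2(TPM + 1) scale of the constitutive (circles) and inducible (squares) cutting subunit at each of 3 sites, by library, with wild-type left and knockout right of the grey line. The inducible subunit lies above the constitutive one in a single case, Psmb10 in wild-type 3 at 212 TPM.

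Immune cells express the inducible subunits, so marker levels are given beside them. The summed level of 11 microglia and macrophage markers was lowest in wild-type 3, at 16 TPM with C1qa, C1qb and Tyrobp listed at 0, and this is the library with the highest Psmb10. It was 3255 TPM in knockout 5, the library with the highest Psmb8, but also 3009 TPM in knockout 2 and 2753 TPM in wild-type 4, where Psmb8 was at 0.79 and 0 TPM. The part of these cells in the Psmb8 values was not tested. Of 16 genes of antigen presentation by MHC class I and of the interferon response, 7 were tested, with 4 higher, 3 lower and 0 called by limma. The interferon genes Ifit1 and Isg15 were at most 0.193 and 1.87 TPM. The thymus subunit Psmb11 was at 1.01 to 2.45 TPM for wild-type, and 0.121 to 2.63 TPM for knockout, and the testis subunit Psma8 was listed at 0 in 9 libraries and at 0.248 TPM in knockout 4.

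The 6 ATPases of the cap had medians of 23.1 to 79.4 TPM, with 3 higher and 3 lower and none called. Psmc1 (chromosome 12, 100110154 to 100123405, plus strand) had the smallest p of these. It stood at 65.3, 75.2, 89.2, 8.92 and 64.4 TPM for wild-type, and 44.8, 205, 77.4, 221 and 131 TPM for knockout. Knockout 2, 4 and 5 were above all wild-type libraries, and wild-type 4 was far below the others. The difference was 1.24 (SE 0.69, interval -0.21 to 2.68, limma adjusted p = 0.992), and 0.66 without wild-type 4. Without knockout 1 it was 1.58, with an unadjusted limma p of 0.0374 and an adjusted p of 0.839. Psmc3 had the highest median of the ATPases and was at 156, 223, 35.9, 10.2 and 90.3 TPM for wild-type, and 26.7, 68.6, 34.7, 141 and 352 TPM for knockout. Psmc3 shares 215 exonic bases with Slc39a13 on the opposite strand, a gene with a median of 45.3 TPM, so their reads may not be told apart.

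The 11 other cap subunits with a Psm symbol hold the particle together and bind or remove ubiquitin. Their medians ran from 15.7 to 131 TPM, with 4 higher and 7 lower in knockout and none called. The ubiquitin receptor Psmd4 (chromosome 3, 95032694 to 95042614, minus strand) had the smallest p of all 47 tested members, unadjusted p = 0.0749. It stood at 179, 105, 56.9, 146 and 201 TPM for wild-type, and 11.7, 51.5, 53.0, 183 and 59.3 TPM for knockout. Knockout 1, 2 and 3 were below all wild-type libraries, and knockout 4 was above 4 of the 5. The difference was -1.27 (SE 0.68, interval -2.68 to 0.14; limma adjusted p = 0.992). Without knockout 1 it was -0.76. Without the 3 libraries that stood apart it was -1.77, with an unadjusted limma p of 0.0185 and an adjusted p of 0.988. Psmd8, the most abundant of these subunits, was at 72.7, 164, 131, 285 and 120 TPM for wild-type, and 37.1, 257, 107, 439 and 131 TPM for knockout. Psmd14, the deubiquitinase of the cap, and Psmf1, the inhibitor of the core, are given for their roles and lie outside the rule for named genes. Psmd14 was at 51.0 ± 26.5 (wild-type) and 45.6 ± 13.4 TPM (knockout; SD, n = 5 each).

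Of the alternative caps and the inhibitor, 2 of 5 genes were higher and 3 lower, with none called. Psme1 and Psme2 encode the alpha and beta subunits of the ring-shaped activator PA28. Psme1 (chromosome 14, 55578123 to 55581529, plus strand) was at 926, 375, 705, 398 and 158 TPM for wild-type, and 442, 493, 374, 231 and 177 TPM for knockout. Its partner Psme2 (chromosome 14, 55587441 to 55591113, minus strand) was at 70.9, 111, 11.6, 17.6 and 69.9 TPM for wild-type, and 67.2, 42.1, 35.6, 374 and 161 TPM for knockout. Psme1 exceeded Psme2 in every library but knockout 4, and over the 10 libraries their Spearman rho was -0.467. For Psme2 the difference was 1.12 (SE 0.77, interval -0.48 to 2.73, limma adjusted p = 0.992). It was 0.36 without the 3 libraries that stood apart and 1.48 without wild-type 2. The nuclear activator subunit Psme3, chosen after its values were seen, was at 599 TPM in knockout 1, against 10.1 to 81.9 TPM in the other 4 knockout libraries and 33.7 to 116 TPM in wild-type. Psmf1 was low at 12.5 ± 6.71 (wild-type) and 5.74 ± 3.03 TPM (knockout; SD, n = 5 each).

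Assembly chaperones, which build the core and cap and then leave, had the largest median SE of the classes (0.97, against 0.56 to 0.73 for the other 6). Their medians ran from 3.70 to 41.2 TPM, and 3 of 7 were higher and 4 lower in knockout with none called. Psmg3 and Psmg4 form a pair that starts the alpha ring. Psmg3 (chromosome 5, 139823592 to 139826885, minus strand) was at 13.5, 9.80, 8.37, 0 and 31.5 TPM for wild-type, and 0, 177, 2.21, 186 and 58.3 TPM for knockout. Its difference of 1.41 (SE 1.29, interval -1.28 to 4.11; limma adjusted p = 0.992) was 0.42 without the 3 libraries that stood apart and 2.54 without knockout 1. Psmg4 was at 80.9, 30.5, 0, 79.0 and 48.3 TPM for wild-type, and 9.95, 57.1, 0, 128 and 34.1 TPM for knockout, so each genotype had 1 library listed at 0. The chaperone Psmd9 was listed at 0 in wild-type 4, and the other 9 libraries had 0.222 to 23.6 TPM. Such zeros may stand for an estimate that failed. Psmc3ip, the symbol that is no proteasome gene, was at 0.345 to 3.97 TPM for wild-type, and 0 to 11.3 TPM for knockout.

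For 8 members the 3 libraries that stood apart lay outside the range of the other 7, whatever their genotype. Psma5, Psmb3, Psmb4 and Psmd3 were higher there (4 of 47, against 2.62% of all tested symbols). Psmc6, Psme1, Psme3 and Psme4 were lower (4 of 47, against 21.2%). Psmd3 had a median of 236 TPM in the 3 and 31.2 TPM in the 7, and Psme1 of 177 and 442 TPM. These 3 libraries comprise 1 wild-type and 2 knockout libraries. Without them the difference between genotypes was 1.0 for Psma5, in place of 0.85, and 0.81 for Psmb3, in place of 1.20.

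**Figure D5:**
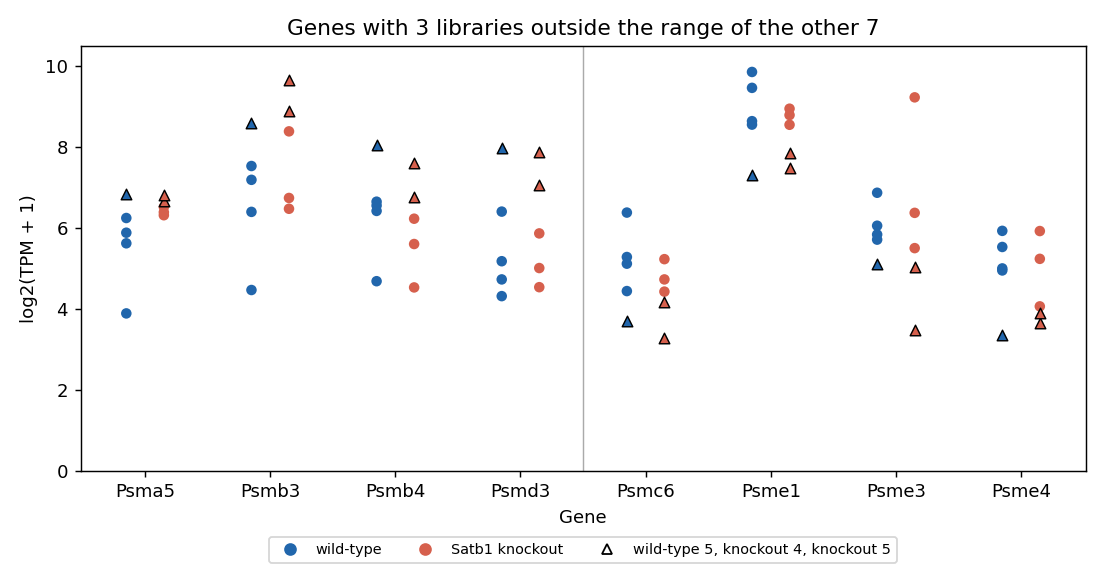
Level on the log2(TPM + 1) scale of the 8 genes for which wild-type 5, knockout 4 and knockout 5 (triangles) lie all above (left) or all below (right) the other 7 libraries (circles). Psmd3 shows the widest gap of medians on the left, at 236 against 31.2 TPM.

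Of 37 symbols listed for the ubiquitin system around the proteasome, 33 were in the table and 31 were tested. Limma called 0 of them, and 7 were higher and 24 lower in knockout, with a median of -0.13 where the median of all tested symbols was -0.31. Among the abundant ones were Uchl1, a neuronal ubiquitin hydrolase, with a median of 1367 TPM, and Pomp, the chaperone that completes the beta ring, with a median of 447 TPM. Pomp was at 643, 378, 815, 396 and 173 TPM for wild-type, and 603, 554, 498, 228 and 356 TPM for knockout. The smallest p values were those of the ubiquitin-activating enzyme Uba6 (-1.26, SE 0.86; limma adjusted p = 0.992), the polyubiquitin gene Ubb (-0.79, SE 0.62) and the cap-bound deubiquitinase Uchl5 (-0.94, SE 0.74), none called. Nfe2l1, the transcription factor known to raise proteasome genes when the protease is inhibited, was at 93.0, 67.9, 131, 372 and 38.7 TPM for wild-type, and 76.9, 105, 44.7, 97.4 and 292 TPM for knockout, with overlapping genotypes. The receptor subunit Adrm1 was at 33.3 to 602 TPM for wild-type, and 52.2 to 521 TPM for knockout, highest in wild-type 5 and knockout 4.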

How the data were processed

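The authors deposited log10(TPM + 1) values for 23746 entries in 10 libraries. The base and offset were read from the values, since every library then sums to 1000000 TPM. The submitters' processing notes name TopHat2 2.0.10, Cufflinks and mm10. For the annotation, the counting step and strand, nothing is given in the sources used here, so overlapping genes (8 members share exonic bases with another gene in the table), close copies and pseudogenes may share reads. Library depth is unknown, because TPM does not retain it.

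Entries named by a number alone (26, with 0.0438% to 0.198% of TPM) were left out, and 240 symbols on several lines were summed. The test was limma 3.58.1 (R 4.3.3) on log2(TPM + 1) with a single genotype term and trended variances, over the 11744 symbols that reached 1 TPM in 5 or more libraries, with Benjamini-Hochberg adjustment over all of them and a threshold of 0.05. The fit was tested on simulated data. Named in each class are the member with the smallest p, the one with the highest median, the cutting subunits and members listed at 0, and genes outside this rule are said to be so or given as ranges and counts. The members, lists and alternatives (pseudocount, filter, scaling, library weights, replicate block, variance trend, values of 0, libraries left out) were chosen with earlier results of these data known. Coordinates are from GENCODE M21 (GRCm38, the same build as mm10). All 41 promoter entries come from RefSeq.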

Additional observations from a re-analysis of the deposited data

Results flagged for a closer look

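The libraries of each genotype were compared for all 49 symbols, on the log2(TPM + 1) scale, and for their summed TPM, which gives 100 groups of 5 libraries. In 1 group every library was listed at 0, and in 3 groups 4 of the 5 were, so that the fifth had to stand apart. These 3 are Psmb9 in wild-type 5 (8.82 TPM), Psmb9 in knockout 4 (2.68 TPM) and Psma8 in knockout 4 (0.248 TPM). Of the other 96 groups, 5 had a library far from the rest, where chance gives about 1 in 20. Psmc1 was at 8.92 TPM in wild-type 4, with the next wild-type library at 64.4 TPM. In the same library Psmb1 was at 19.6 TPM, with the next at 84.0 TPM, and Psmd2, a scaffold subunit of the cap, was at 16.5 TPM, with the next at 69.3 TPM. Psmg4 was listed at 0 in wild-type 3, with the next at 30.5 TPM. Psmd12, another cap subunit, was at 28.9 TPM in knockout 5, with the next knockout library at 48.4 TPM.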

How the results depend on the processing

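Under 22 alternative fits, limma called 0 members in each, with a smallest adjusted p of 0.651 and at most 2 members at an unadjusted p under 0.05. The median difference of the members stayed between -0.15 and 0.37. The number of members lower in knockout was 17 to 28, except 10 after median centring, which moved the median of all genes from -0.31 to 0.07. Over all genes, limma called 3 with library weights, 1 without the variance trend and 1 with values of 0 as missing, and 0 to 1 on leaving out 1 library. For Psmb8 the difference reversed to -0.06 with library weights and to -0.20 with values of 0 as missing. The other 6 members with a given difference kept its direction in every fit that could be made, and Psmb8 and Psmg3 were absent from the fit that asked for 1 TPM in all 10 libraries. The summed TPM differed by 233 to 738 on leaving out 1 library, against 485 with all. Whether shared replicate numbers pair the libraries cannot be decided from these values. Correlations were 0.225, 0.0741, 0.132, -0.032 and 0.364 for numbers 1 to 5, and some but not all libraries correlated best with their own number. The largest correlation, 0.491, was between wild-type 5 and knockout 4. Both are among the libraries that stood apart, a split that can hide or mimic a pairing. A replicate block called 0 members and 0 genes, with 830 genes at an unadjusted p under 0.05 in place of 389. Depth limits are unknown, since TPM keeps no counts.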
